A study of Mus musculus with 8 samples.

Results

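Granzymes are serine proteases that cytotoxic T cells and natural killer (NK) cells store in secretory granules. The 5 genes described here are 4 granzyme genes (Gzma, Gzmb, Gzmf and Gzmk) and Nkg7, which codes for a membrane protein of the same granules. They were chosen by symbol as 5 of the 752 genes of the authors' deposited table. All 5 were found, each once, and none was dropped for low values.

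RNA was sequenced in bulk from 8 subcutaneous tumors of wild-type germ-free C57BL/6 mice, grown from MC38, a mouse colon adenocarcinoma cell line. Mice of both groups received an antibody against PD-1, an inhibitory receptor of activated T cells, by intraperitoneal injection. The 4 tumors numbered 11, 17, 18 and 19 (replicates 1 to 4) came from mice given the antibody alone. The 4 tumors numbered 36, 37, 39 and 40 (replicates 1 to 4) came from mice that were also gavaged with Fusobacterium nucleatum strain ATCC-25586, a species of oral and intestinal anaerobe. Tumors were dissected on day 23. The comparison asks what the bacterium does to a tumor under anti-PD-1 therapy. The model is 1 cell line, and the labels give a tumor number for each library without stating that each came from its own mouse, so p-values measure the spread between these 8 tumors only. The age and sex of the mice are not given in the labels.

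When a cytotoxic cell meets its target it releases its granules into the contact zone. Perforin lets the granzymes into the target cell, where granzyme B cleaves after aspartate and activates caspases, while granzymes A and K cleave after basic residues. Nkg7 sits in the granule membrane and is needed for efficient granule release. Anti-PD-1 therapy acts through T cells, and granzyme transcripts are a common readout of cytotoxic cells in a tumor.

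Every gene of the deposited table has an unadjusted p of at most 0.04995 and a log2 difference of more than 1 in size in this same contrast, per the authors' deposited table. Shares of the table are therefore shares of selected genes. Reads recovered from the deposited values summed over the 752 genes to between 97511 and 308139 per tumor, the total depth of each library is unknown, and relative size factors ran from 0.644 to 1.27. Tumor 36 carried skeletal muscle genes (19 of 21 listed genes in the table, summed FPKM 451 against 2.01 to 2.60 in the anti-PD-1 tumors). Tumor 37 carried skin keratinocyte genes (17 of 21 listed genes, summed FPKM 386 against 1.5 to 1.95). Tumor 37 also had 23.5 FPKM of the muscle genes, and tumors 39 and 40 had 4.36 and 2.90 FPKM of them and 1.55 and 2.46 FPKM of the skin genes. Of 9 markers of colon epithelium, which the MC38 line derives from, only Epcam was in the table, with 0 reads in the 4 anti-PD-1 tumors, 3 in tumor 36 and 160 in tumor 37.

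The 4 granzyme genes lie in 2 clusters. On GRCm38, Gzma (chr13:113093825-113100981, minus strand) and Gzmk (chr13:113171608-113225908, minus strand) are neighbours 70.6 kb apart. Gzmb (chr14:56258838-56262260, minus strand) and Gzmf (chr14:56205263-56211417, minus strand) lie 47.4 kb apart in a cluster of 7 granzyme genes that spans 144.6 kb, of which Gzmg is the third gene in the table. Each of the 4 has 5 exons in its first annotated coding transcript. Nkg7 stands alone on chr7:43437073-43438249 (plus strand) and has 4 exons. Sequence likeness within the chromosome 14 cluster bears on how far reads can be assigned. The transcripts of Gzmf and Gzmg were identical at 88.7% of aligned bases, against 70.1% for Gzmb and Gzmf and 64.3% for Gzma and Gzmk. Of all 50-base stretches of Gzmf transcripts, 7.36% also occurred in another granzyme transcript, while for Gzma, Gzmb, Gzmk and Nkg7 this share was 0%. The sources used here give no read length, so a small part of the Gzmf reads may belong to Gzmg or Gzmd.

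The promoters of the 4 granzymes are shown because these genes come from 2 clusters and had lower mean values in the same group. The windows are the 250 bases before the RefSeq start (GRCm38.p6), written 5′ to 3′ on the gene's own strand. Capitals mark matches to 5 motifs searched on both strands of the whole 250 bases: T-box GGTGTGA, Runx TGTGGTT, AP-1 TGANTCA, NFAT GGAAAA and Stat TTCNNNGAA, where a match on the other strand appears as its reverse complement. No match overlapped another. For Gzmf the 10 bases nearest the start were searched but are not printed because a GENCODE exon of Gzmf covers them, and the Gzmk window lies inside the GENCODE gene, which has a longer transcript.
Gzma promoter, chr13:113100982-113101231 (- strand): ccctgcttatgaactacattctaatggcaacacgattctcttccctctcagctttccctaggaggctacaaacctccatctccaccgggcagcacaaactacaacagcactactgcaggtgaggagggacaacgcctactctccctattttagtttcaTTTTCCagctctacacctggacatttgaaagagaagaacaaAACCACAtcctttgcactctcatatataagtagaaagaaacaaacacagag
Gzmb promoter, chr14:56262335-56262584 (- strand): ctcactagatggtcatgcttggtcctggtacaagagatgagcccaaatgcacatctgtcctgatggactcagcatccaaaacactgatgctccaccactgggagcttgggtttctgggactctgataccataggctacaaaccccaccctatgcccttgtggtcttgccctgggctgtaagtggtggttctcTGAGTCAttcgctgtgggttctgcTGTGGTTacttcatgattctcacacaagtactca
Gzmf promoter, chr14:56211418-56211657 (- strand): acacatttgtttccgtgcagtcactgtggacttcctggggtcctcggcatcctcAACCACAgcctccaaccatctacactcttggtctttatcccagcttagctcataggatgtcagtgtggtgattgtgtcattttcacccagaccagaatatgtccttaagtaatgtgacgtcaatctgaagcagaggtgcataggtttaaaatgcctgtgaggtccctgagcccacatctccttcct
Gzmk promoter, chr13:113180966-113181215 (- strand): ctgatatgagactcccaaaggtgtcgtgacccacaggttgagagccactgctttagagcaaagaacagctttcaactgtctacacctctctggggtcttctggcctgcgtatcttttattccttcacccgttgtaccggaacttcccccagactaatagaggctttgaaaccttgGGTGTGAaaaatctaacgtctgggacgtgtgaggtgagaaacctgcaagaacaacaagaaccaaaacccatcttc

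The Runx letters were in 3 of the 5 members' promoters, at 51 to 45 bases before the start of Gzma, 34 to 28 before Gzmb and 196 to 190 before Gzmf. They were in 4.4% of all 32851 RefSeq windows, each searched over 250 bases. The T-box letters, which Eomes and T-bet can bind, were in 2 of the 5, Gzmk (75 to 69 bases before the start) and Nkg7 (13 to 7 bases before it), and in 3.33% of all promoters. The 65 bases nearest the RefSeq start of Nkg7 are covered by a GENCODE exon of that gene, so this Nkg7 match lies in an exon of the other annotation. Gzmb also held an AP-1 match (58 to 52 bases before the start, 6.75% of all promoters). Gzma held an NFAT match (92 to 87 bases before the start, 20.4% of all promoters), and Nkg7 a Stat match (220 to 212 bases before the start, 7.02% of all promoters). Thus no motif of the 5 was in every member, and the matches are descriptions of letters, not of binding.

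All 5 genes had lower mean values with F. nucleatum, and Gzmb and Gzmk fell by the authors' FDR. Gzmb, the granule protease best known for activating caspases, fell to a mean of 0.792 ± 0.528 FPKM from 3.39 ± 2.06 FPKM (SD, n = 4 each), with an FDR of 0.0108 in the authors' deposited table. Gzmk, a protease with trypsin-like specificity, fell to 0.0109 ± 0.0217 FPKM from 0.264 ± 0.134 FPKM (SD, n = 4 each), with an FDR of 0.00572 in the authors' deposited table. Gzma, Gzmf and Nkg7 had FDR values of 0.712, 0.597 and 0.111 there. The 4 tumors of each group did not overlap for Gzma, Gzmb, Gzmk and Nkg7, and overlapped for Gzmf. In bulk RNA, fewer cytotoxic cells and less RNA per cell cannot be told apart.

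Set against the table, 2 of the 5 members were lower with an authors' FDR under 0.05, and so were 6.25% of the 752 genes. Of the 5 members, 4 were lower without overlap between the groups, as were 12.4% of the table. With limma, fitted on the deposited log2 values of all 752 genes, 0 of the 5 members passed an adjusted p under 0.05, and 0% of the table did. The smallest limma adjusted p of the table was 0.0932. At an unadjusted limma p under 0.05, 323 genes of the table passed. Of these, 207 were lower with F. nucleatum, which is 27.5% of the table, and they include all 5 members. The members' median log2 difference was -2.46, beside 1.18 over the whole table and -1.82 over its 353 lower genes. Since limma's adjusted values cover a selected table they are too small. Adjusted over at least 29424 genes all 5 members were 1, where each gene outside the table was assigned the largest possible p. The true limma p-values of those genes are unknown, and limma's pooled spread came from the selected genes alone. An exact permutation test of 4 against 4 tumors has 70 arrangements and cannot give a two-sided p below 0.0286. The table's selection on this same contrast also favours a low permutation p for each member.

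**Figure D1:**
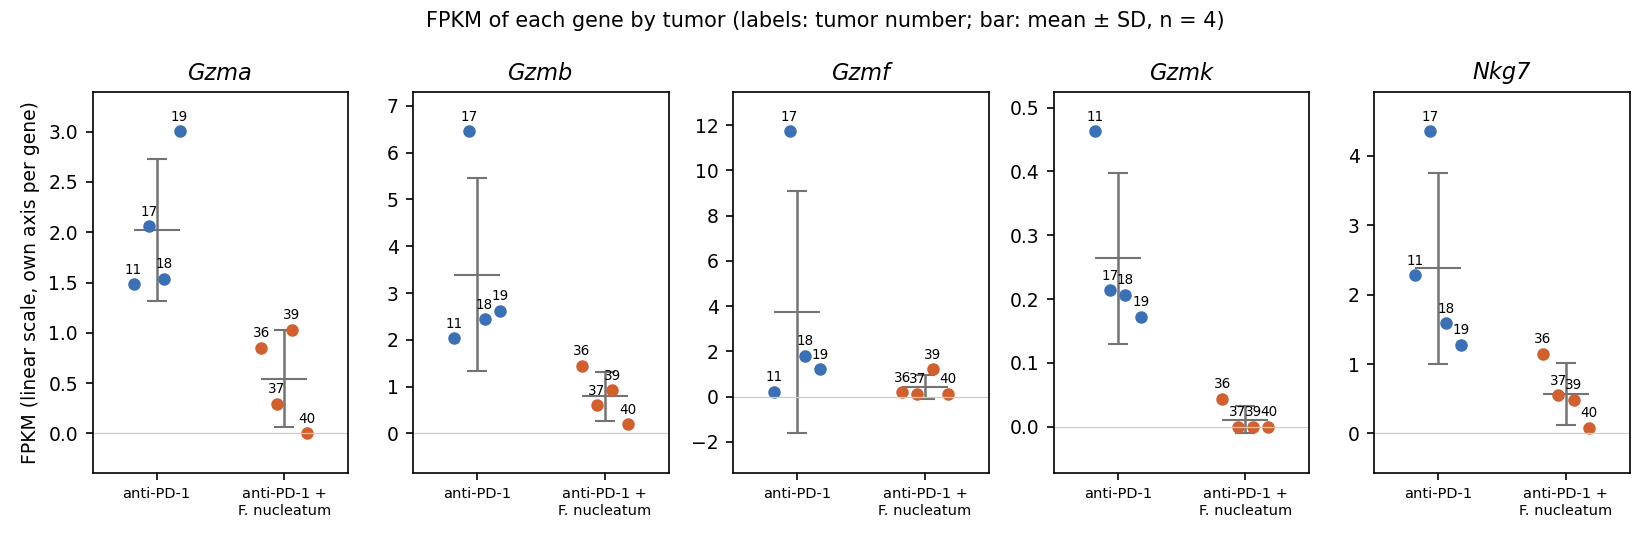
FPKM (vertical, linear, own axis for each gene) of the 5 genes in 4 anti-PD-1 tumors (blue) and 4 anti-PD-1 + F. nucleatum tumors (orange), with tumor numbers beside the points and bars for the mean ± SD. The groups stand apart for all genes but Gzmf, where tumor 11 at 0.206 FPKM lies below tumor 39 at 1.2 FPKM.

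Gzmb had 2.03, 6.45, 2.44 and 2.63 FPKM in tumors 11, 17, 18 and 19, from 190, 383, 224 and 307 reads. With F. nucleatum it had 1.45, 0.603, 0.924 and 0.196 FPKM in tumors 36, 37, 39 and 40, from 160, 49, 105 and 18 reads. Tumor 17 was far above the other 3 anti-PD-1 tumors, tumor 40 was lowest of all, and no F. nucleatum tumor reached the lowest anti-PD-1 tumor. Mean FPKM was 4.28-fold higher with the antibody alone. On the deposited scale, log2 of the normalized count plus 1, the difference was -2.22 ± 0.689 (SE; n = 4 and 4; limma p = 0.00566, adjusted 0.0932; exact permutation p = 0.0286). Without tumor 40 the difference was -1.69, and without tumor 36 it passed limma's threshold (-2.59, adjusted p = 0.0334).

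Gzmk was the scarcest of the 4. It had 0.463, 0.214, 0.207 and 0.172 FPKM in tumors 11, 17, 18 and 19, from 43, 13, 19 and 21 reads. With F. nucleatum it had 0.0434 FPKM from 5 reads in tumor 36, and tumors 37, 39 and 40 had 0 reads. All Gzmk signal of the F. nucleatum group thus came from the tumor with the muscle genes, and tumor 11 was highest in the other group. The 95% Poisson interval of the 43 reads was 31.1 to 57.9 and that of the 5 reads was 1.62 to 11.7, and such intervals cover counting error only. A count of 0 was taken to allow up to 3 reads (the upper limit of its 95% Poisson interval is 3.69). In those 3 tumors 3 reads are 2.42 to 3.48 normalized counts, against 16.6 to 41.1 measured in the anti-PD-1 tumors.

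The Gzmk difference was -3.99 ± 0.646 on the log2 scale (SE; n = 4 and 4; limma p = 0.000421, adjusted 0.0932; exact permutation p = 0.0286). With every value under 3 reads set to 3 reads it was -2.49, so its size rests on how 0 is treated. Without tumor 36 it was -4.57 (limma adjusted p = 0.0178), and without tumor 11 it was -3.71. By reads the groups held 96 and 5.

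Gzma, the protease of basic residues that is abundant in NK cells and effector CD8 T cells, had 1.48, 2.06, 1.54 and 3.0 FPKM in tumors 11, 17, 18 and 19 (97, 86, 99 and 246 reads). With F. nucleatum it had 0.852, 0.297 and 1.03 FPKM in tumors 36, 37 and 39 (66, 17 and 82 reads) and 0 in tumor 40. It varied least of the 5 among the anti-PD-1 tumors, 2.03-fold from lowest to highest, and in tumor 40 a count of 0 allows up to 3 reads. Mean FPKM was 3.71-fold higher with the antibody alone (2.02 ± 0.705 against 0.545 ± 0.479, SD, n = 4 each). The log2 difference was -2.93 ± 1.42 (SE; limma p = 0.0264, adjusted 0.101; exact permutation p = 0.0286), and 16 of 16 pairs of tumors had the lower value with F. nucleatum. Without tumor 40 the difference was -1.58.

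Gzmf, a granzyme of the mouse chromosome 14 cluster, had 0.206, 11.7, 1.80 and 1.2 FPKM in tumors 11, 17, 18 and 19 (13, 444, 106 and 90 reads). With F. nucleatum it had 0.202, 0.120, 1.2 and 0.125 FPKM in tumors 36, 37, 39 and 40 (15, 7, 87 and 8 reads). It was the most uneven gene, 57.0-fold apart within the anti-PD-1 group, and tumors 19 and 39, of different groups, had nearly the same value. The means were 3.73 ± 5.37 and 0.412 ± 0.528 FPKM (SD, n = 4 each), a 9.06-fold ratio that rests on tumor 17. The log2 difference was -2.46 ± 1.36 (SE; limma p = 0.0486, adjusted 0.114; exact permutation p = 0.0571), and 15 of 16 pairs were lower with F. nucleatum. Without tumor 17 it was -1.49 and without tumor 11 it was -3.38.

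Nkg7 had 2.28, 4.35, 1.59 and 1.28 FPKM in tumors 11, 17, 18 and 19 (137, 165, 94 and 96 reads). With F. nucleatum it had 1.15, 0.549, 0.484 and 0.0810 FPKM in tumors 36, 37, 39 and 40 (82, 28, 36 and 5 reads). The groups came close, tumor 36 lying just under tumor 19, but did not overlap, and tumor 40 was again lowest. The means were 2.38 ± 1.38 and 0.566 ± 0.441 FPKM (SD, n = 4 each), a 4.19-fold ratio. The log2 difference was -2.30 ± 0.814 (SE; limma p = 0.0104, adjusted 0.0945; exact permutation p = 0.0286). Without tumor 40 it was -1.63, and without tumor 36 it passed limma's threshold (-2.77, adjusted p = 0.0403).

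The muscle and skin genes were highest in tumors 36 and 37. Gzmb and Nkg7 were lowest in tumor 40 and Gzma was at 0 there. Gzmf was lowest in tumor 37 (0.120 FPKM), and Gzmk was at 0 in tumors 37, 39 and 40. Whether muscle and skin tissue had a part in the members' differences was not tested. With tumors 36 and 37 left out together, a choice made after seeing the data, the log2 differences were -3.94 for Gzma, -2.75 for Gzmb, -1.83 for Gzmf, -4.57 for Gzmk and -3.20 for Nkg7. All but that of Gzmf were larger in size than with all 8 tumors, and all rest on tumors 39 and 40 alone for the F. nucleatum group. Only Gzmk of the 5 then passed limma's threshold (adjusted p = 0.0237), beside 126 of the 752 genes, 83 of them lower. Without tumor 36 alone, 140 of the 752 genes passed, 127 of them lower. Centring each tumor on its median over the table moved every log2 difference by -0.61, and 4 of the 5 members then passed, all but Gzmf. Of the 125 genes called in that setting 118 were lower, in a table where 353 of 752 genes are lower.

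The order of the granzymes differed between tumors of the same group. FPKM is scaled by transcript length, so the 4 genes can be set side by side. Gzmb was the most abundant in tumors 11, 18, 36, 37 and 40, Gzmf in tumors 17 and 39, and Gzma in tumor 19. The most abundant exceeded the second by 1.14-fold in tumor 19 to 2.03-fold in tumor 37. Gzmk was the least abundant in every tumor except tumor 11, where it was above Gzmf, and in tumor 40, where it and Gzma were both at 0 reads.

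Their summed FPKM was 4.18, 20.5, 5.98 and 7.01 in tumors 11, 17, 18 and 19 and 2.54, 1.02, 3.16 and 0.321 in tumors 36, 37, 39 and 40. The group means were 9.41 ± 7.46 and 1.76 ± 1.31 (SD, n = 4 each), without overlap (exact permutation p = 0.0286). The 4 genes had each passed the table's selection on this same contrast, so a low p for their sum was favoured in advance. As a percentage of that sum, Gzmb took 48.6, 31.6, 40.7 and 37.5% in the anti-PD-1 tumors and 56.8, 59.1, 29.3 and 61.1% with F. nucleatum. Of the latter 4 values, 3 lay above every anti-PD-1 value and that of tumor 39 lay below them all. Gzmf took 57.3% in tumor 17 and 4.92% in tumor 11, which bound its range over all 8 tumors. Gzma took 10.1 to 42.9% with the antibody alone and 0 to 33.5% with F. nucleatum. Gzmk took 11.1% in tumor 11, 1.05 to 3.45% in the other 3 anti-PD-1 tumors, 1.71% in tumor 36 and 0% in the rest.

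No share passed the test between groups. The differences, F. nucleatum minus antibody alone, were 12 ± 8.29 percentage points for Gzmb, -4.08 ± 2.28 for Gzmk, -4.70 ± 10.7 for Gzma and -3.23 ± 14 for Gzmf (SE, n = 4 and 4). Adjusted over the 4 shares, the exact permutation p was 0.4, 0.229, 0.838 and 0.857. With 4 shares, 1 share alone could not have passed 0.05 after adjustment even at the smallest possible p. Single tumors moved these values: the Gzmb difference was 19.5 ± 3.76 without tumor 39 and 8.83 without tumor 40, and the Gzmk difference was -1.89 without tumor 11 and -5.24 without tumor 17 (exact permutation p = 0.0286, adjusted 0.114). The Gzma and Gzmf differences turned sign, ranging from -10.8 to 3.24 and from -10.7 to 6.75 when 1 tumor was left out. The spread of Gzmf alone, 22.5 percentage points among anti-PD-1 tumors (SD), exceeded each difference found with all 8 tumors.

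**Figure D2:**
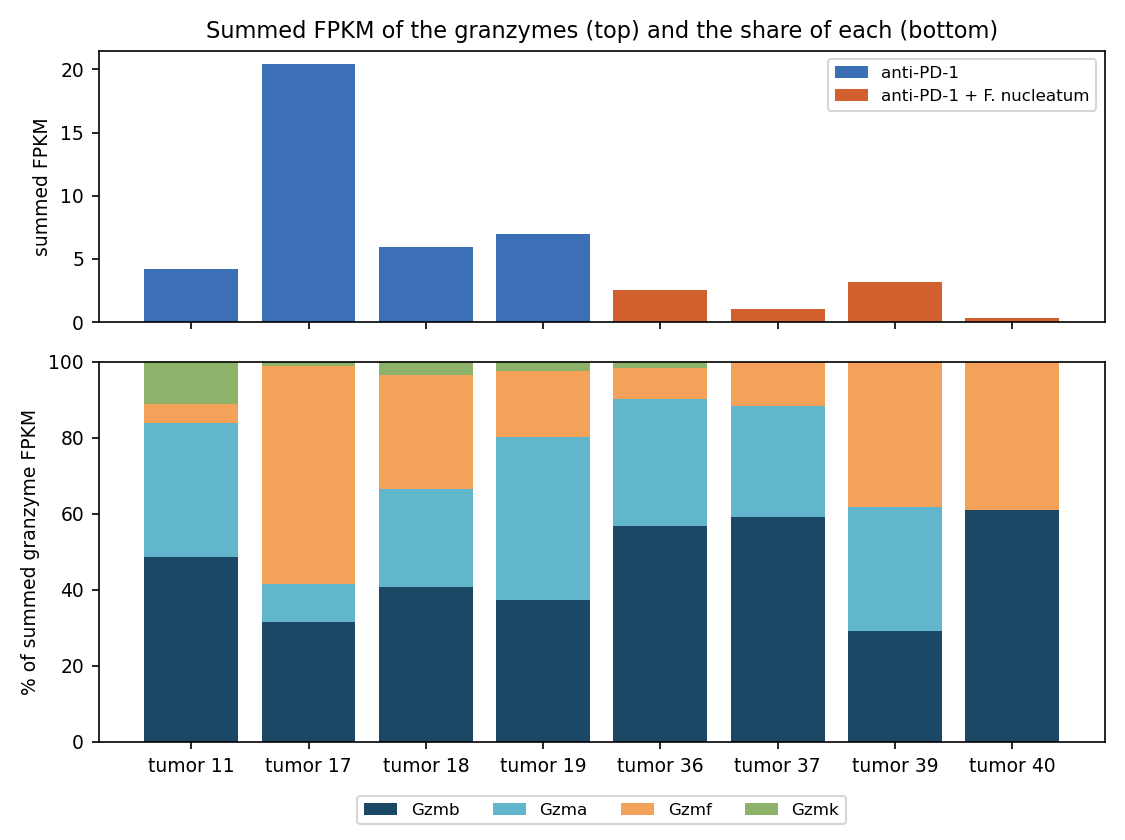
Summed FPKM of Gzma, Gzmb, Gzmf and Gzmk in each tumor (top, bars from 0, blue for anti-PD-1 and orange for anti-PD-1 + F. nucleatum) and the percent of that sum from each gene (bottom, stacked). The sum is 20.5 in tumor 17 and 0.321 in tumor 40, while the mix varies within both groups, Gzmf taking 57.3% in tumor 17 and 4.92% in tumor 11.

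Pairs of members were also compared on the log2 scale, as the value of one gene minus that of the other in each tumor, over 10 pairs. The steadiest pair was Gzmb and Nkg7. Gzmb exceeded Nkg7 by 0.47 to 1.67 in the 8 tumors, with group means of 1.15 ± 0.497 and 1.23 ± 0.427 (SD, n = 4 each), and the difference of 0.08 ± 0.327 (SE) was not distinguishable from 0 (exact permutation p = 0.743, adjusted 0.889). This scale is not per length, so the gap between the genes is not a ratio of their molecules. The pairs with the smallest p were Gzmk minus Nkg7 (-1.68 ± 0.702, exact permutation p = 0.0571, adjusted 0.429) and Gzmb minus Gzmk (1.77 ± 0.741, exact permutation p = 0.0857, adjusted 0.429). With values under 3 reads set to 3 reads these became -0.18 and 0.27. The other 7 pairs had adjusted p of 0.889 to 0.971, and no pair passed. Adjusted over 10 pairs, 1 pair alone could not have passed 0.05 even at the smallest possible p, so the test cannot show whether a single pair differed. Gzma minus Gzmf had a wide spread in both groups, an SD of 2.21 and 2.32.

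The other genes of the granule pathway were counted on lists. The table held 2 of 19 genes of the granule machinery, both lower, and neither passed the authors' FDR. Gzmg, neighbour and close relative of Gzmf, had 0.138, 15.4, 0.211 and 0.415 FPKM in tumors 11, 17, 18 and 19 and 0.0583, 0, 0.420 and 0.108 FPKM in tumors 36, 37, 39 and 40. Like Gzmf it was highest in tumor 17, and in the F. nucleatum group in tumor 39. Of its 50-base stretches 19.8% also occurred in another granzyme transcript and 4.88% in Gzmf, and the part of shared reads in this likeness was not tested. Its log2 difference was -2.88 ± 1.78 (SE; limma p = 0.0679; FDR 0.461 in the authors' deposited table). Ctsw, a cathepsin of cytotoxic cells, had 0.540 ± 0.344 and 0.166 ± 0.217 FPKM (SD, n = 4 each; log2 difference -2.37 ± 1.04, SE; limma p = 0.0248; exact permutation p = 0.0857), with overlap between groups. The other 17, Prf1 (perforin) among them, were not analysed here.

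Of 12 inhibitors of granzymes or their relatives, 2 were in the table and both had lower values with F. nucleatum. Serpina3g, an intracellular serpin of activated leukocytes, had 3.71 ± 1.36 and 1.27 ± 1.31 FPKM (SD, n = 4 each), with 3.23 FPKM in tumor 36 against 0.555 to 0.701 in the other 3. Its log2 difference was -1.91 ± 0.648 (SE), with an FDR of 0.241 in the authors' deposited table. Serpina3f, its close relative, had a log2 difference of -3.41 ± 1.35 (SE) and 0 reads in tumor 37, with an FDR of 0.443 in the authors' deposited table. Both genes overlapped between groups. Reads of these 2 similar genes may be split between them. The median of -2.66 is the midpoint of these 2 values, beside -2.46 for the members. By the table's selection every lower gene differs by more than 1 in size, so the 2 medians cannot show a likeness.

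Among effector cytokines and chemokines the table held 6 of 12. All 6 were lower (median log2 difference -1.70) and 1 passed the authors' FDR, beside 6.25% of the table that were lower and did so. Ccl5, a chemokine that draws T cells, fell to 1.0 ± 0.769 FPKM from 4.08 ± 2.13 FPKM (SD, n = 4 each; log2 difference -2.09 ± 0.654, SE; FDR 0.0224 in the authors' deposited table). The chemokine Ccl3 had 8.91 ± 4.47 and 3.58 ± 0.873 FPKM without overlap between groups, and an FDR of 0.0509 in the authors' deposited table. Il2, the T cell growth factor, had 25 reads in tumor 11, 7 in tumor 18 and 0 in the other 6. Ifng, Tnf and Fasl were not analysed here.

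Transcription factors and cytokine receptors of cytotoxic cells were present with 5 of 20 genes. The 5 were lower (median -1.73), none passed the authors' FDR, and all had an unadjusted limma p under 0.05. Of all 752 genes of the table, 27.5% were lower with such a p, which is 207 of its 353 lower genes. Eomes, a T-box factor of NK cells and memory CD8 T cells, had 0.126, 0.177, 0.153 and 0.154 FPKM in tumors 11, 17, 18 and 19. With F. nucleatum it had 0.117, 0, 0.0243 and 0.00787 FPKM in tumors 36, 37, 39 and 40, a log2 difference of -2.90 ± 1.04 (SE; limma p = 0.0103; FDR 0.820 in the authors' deposited table). It was steady with the antibody alone, and tumor 36 stood close under that group. Il2rb, the receptor chain shared by interleukins 2 and 15, had 1.49 ± 0.331 and 0.725 ± 0.405 FPKM (SD, n = 4 each; log2 difference -1.18 ± 0.419, SE).

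**Figure D3:**
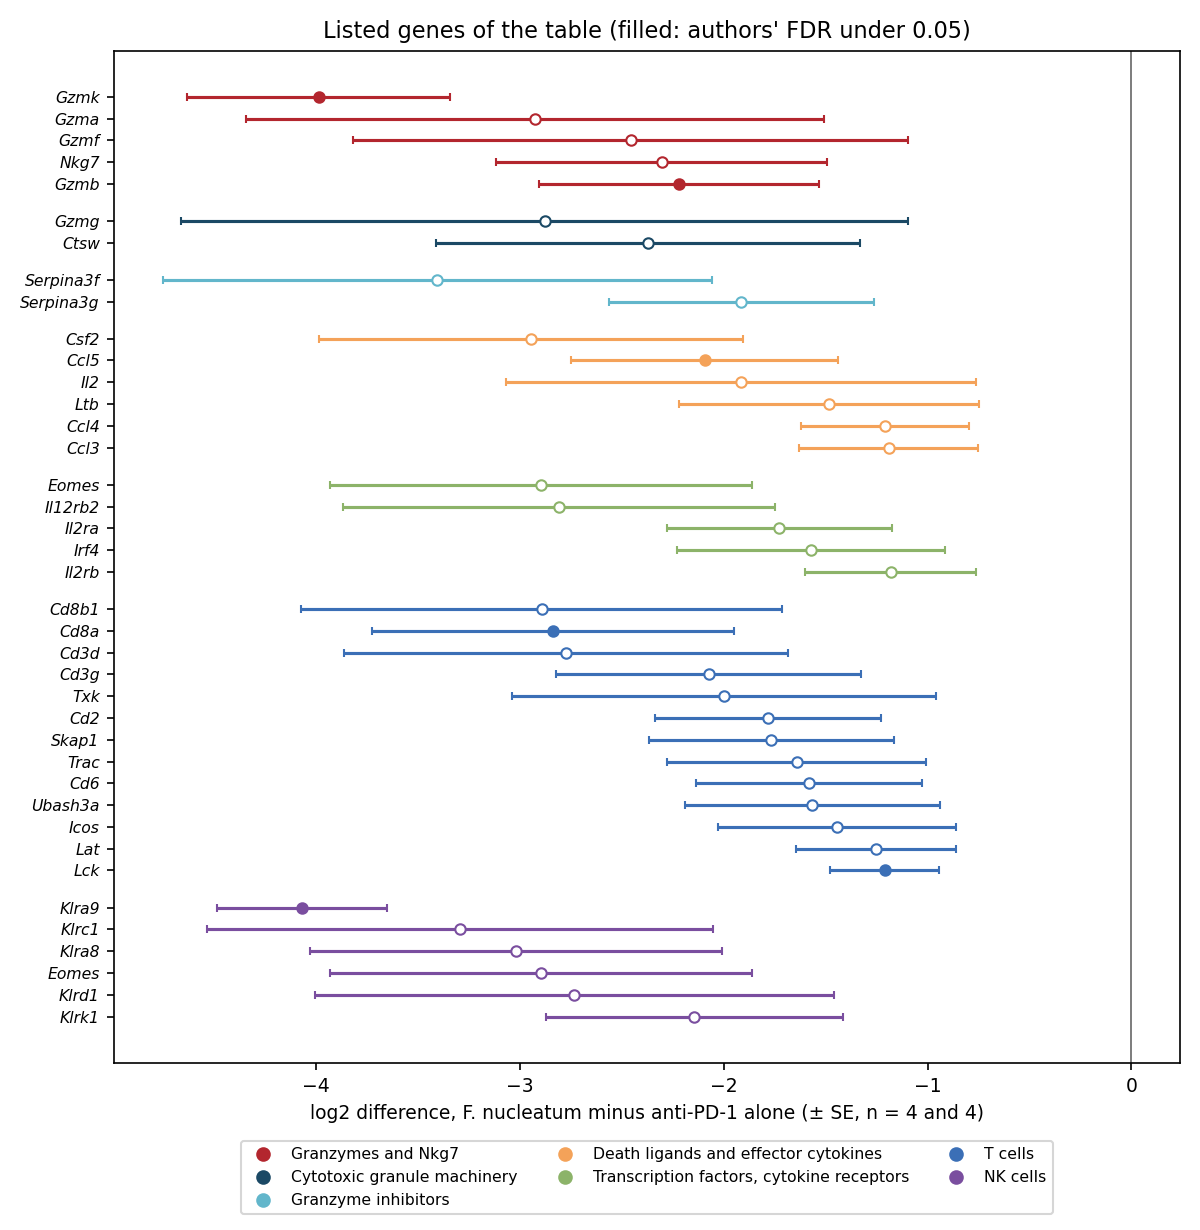
Log2 difference, F. nucleatum minus anti-PD-1 alone (horizontal, ± SE, n = 4 and 4), of the 5 members and of the table's genes from 6 lists. The lists are granule machinery, inhibitors of granzymes or their relatives, effector cytokines, transcription factors and receptors, T cells and NK cells. Filled points have an authors' FDR under 0.05. All points of these lists lie below 0, with Gzmk at -3.99 and the NK receptor gene Klra9 at -4.07 farthest out. Eomes is drawn in 2 lists.

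The cells that make granzymes were followed through markers. For T cells 13 of 24 listed genes were present, and each was lower (median log2 difference -1.77). Of the 13, 2 passed the authors' FDR (6.25% of the table were lower and did so) and 4 did not overlap between groups on the log2 scale (12.4% of the table). Their summed FPKM ran from 3.71 to 9.46 with the antibody alone and from 0.797 to 3.30 with F. nucleatum. Cd8a, a chain of the CD8 co-receptor, had 0.765, 0.816, 0.363 and 0.194 FPKM in tumors 11, 17, 18 and 19 and 0.0962, 0.190, 0.0430 and 0.00902 FPKM in tumors 36, 37, 39 and 40. It fell by 2.84 ± 0.888 on the log2 scale (SE; FDR 0.0229 in the authors' deposited table), and tumor 40, lowest for Gzmb and Nkg7, was lowest here too. Lck, the kinase of T cell receptor signaling, fell by 1.21 ± 0.268 (SE; FDR 0.0369 in the authors' deposited table).

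For NK cells the table held 6 of 16 genes. Each was lower (median -2.96), and 5 of them did not overlap between groups on the log2 scale, as 12.4% of the table did not. In FPKM Klrd1 did overlap, with 0.716 in tumor 36 and 0.696 in tumor 18. Klra9, an NK receptor gene, fell to 0 reads in all 4 F. nucleatum tumors from 20, 9, 7 and 40 reads in tumors 11, 17, 18 and 19 (FDR 0.000136 in the authors' deposited table). Klra9 is one of a family of similar genes, and its reads may be shared with relatives. Klrd1 (CD94), a receptor chain of NK and CD8 T cells, had 0.980 ± 0.222 and 0.287 ± 0.305 FPKM (SD, n = 4 each), with 0 in tumor 40 as for Gzma. The summed FPKM of the 6 ran from 2.02 to 4.11 and from 0.0789 to 1.4. Of 8 regulatory T cell genes, 3 were in the table, all lower (median -1.73). The 12 listed mast cell genes were not analysed here. Of 8 plasmacytoid dendritic cell genes, Siglech was lower and Cox6a2 higher, and neither had an unadjusted limma p under 0.05. Cox6a2 had 4.35 FPKM in tumor 36, the tumor with the muscle genes, and at most 0.908 FPKM in any other. Which cells its reads came from was not tested. The T and NK markers in the table were lower in the same group as the members, as were 353 of its 752 genes. These markers had passed the table's selection on this same contrast, and the listed markers outside it were not analysed here. The part of T and NK cells in the members' differences was not tested.

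The members were therefore also set against the mean log2 value of the 13 T cell genes in the same tumor. These 13 had passed the table's selection on this same contrast, and the listed T cell genes outside the table could not be included. The mean of the 13 may therefore overstate the fall of T cell genes. Values relative to it cannot show whether the members fell in step with T cells. That mean was 6.29, 6.48, 5.43 and 5.54 in tumors 11, 17, 18 and 19 and 5.05, 4.33, 3.90 and 2.82 in tumors 36, 37, 39 and 40, with group means of 5.94 ± 0.531 and 4.03 ± 0.932 (SD, n = 4 each). Relative to it, Gzmb differed by -0.31 ± 0.409 between groups, Nkg7 by -0.39 ± 0.338, Gzmf by -0.55 ± 1.42 and Gzma by -1.02 ± 1.12 (SE, n = 4 and 4). All 4 overlapped between groups, with exact permutation p from 0.343 to 0.743, or 0.607 to 0.743 adjusted over the 5 members. These values depended on the scale and on single tumors. On log2(FPKM + 0.1) they were larger in size for Gzmb (-0.98 ± 0.469, exact permutation p = 0.0857, adjusted 0.143) and Nkg7 (-0.98 ± 0.447, exact permutation p = 0.0571, adjusted 0.143), and -1.15 for Gzmf. Relative to Cd8a alone the signs of Gzmb, Gzmf and Nkg7 turned, to 0.62, 0.38 and 0.54. Without tumor 40 the Gzma value was -0.07 and that of Nkg7 -0.12, and without tumor 39 the Gzma value was -1.73. Leaving out tumor 11 gave -0.63 for Gzmb and -1.59 for Gzmf, and leaving out tumor 17 gave -0.13 and 0.24.

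Gzmk was the 1 member whose groups did not overlap on this measure. Its values relative to the T cell mean were -0.90, -2.08, -1.08 and -1.41 in tumors 11, 17, 18 and 19 and -2.72, -4.33, -3.90 and -2.82 in tumors 36, 37, 39 and 40, without overlap. The difference was -2.08 ± 0.476 (SE; exact permutation p = 0.0286, the smallest possible; adjusted over the 5 members 0.143). With values under 3 reads set to 3 reads it was -0.70 ± 0.403 (exact permutation p = 0.143, adjusted 0.571). On log2(FPKM + 0.1) it was -0.60 ± 0.247 (exact permutation p = 0.0571). With 5 members, 1 member alone could not have had an adjusted p below 0.143, even without overlap. The test therefore cannot decide whether Gzmk fell more than the T cell genes, which had themselves been selected on this contrast. The size of the difference depended on the scale and on how values under 3 reads were treated. For Gzma, tumors 39 and 40 lay at opposite ends, at 2.17 and -2.82.

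**Figure D4:**
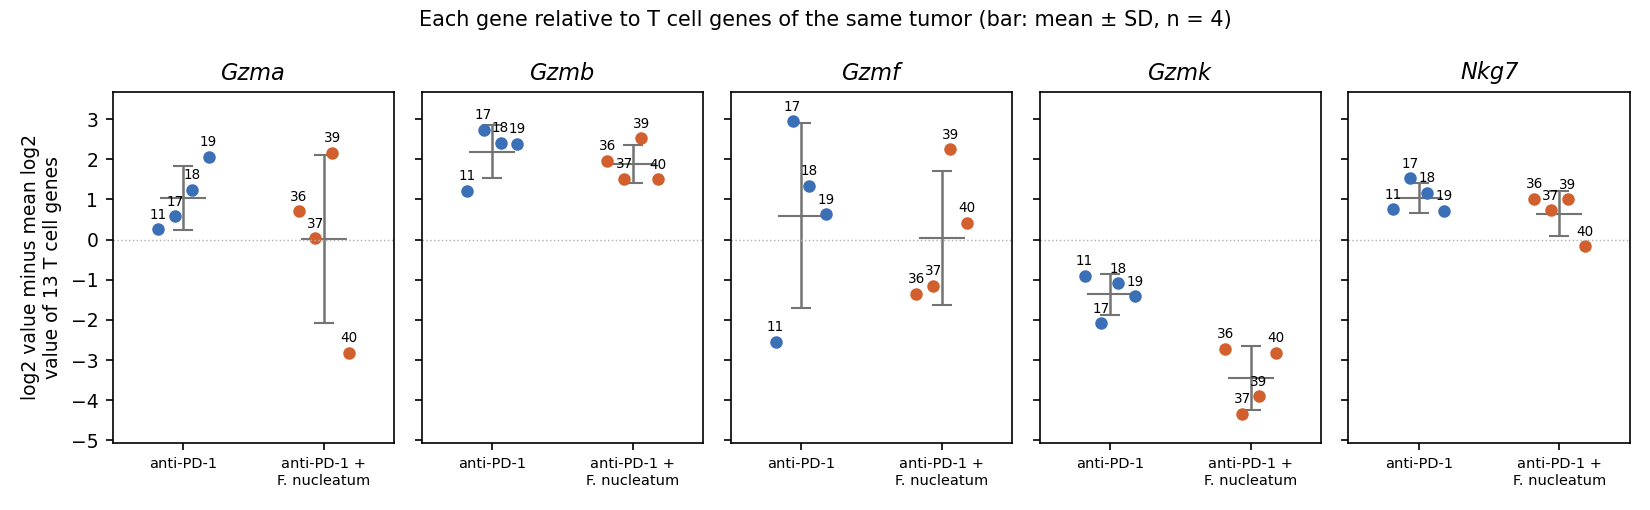
Log2 value of each member minus the mean log2 value of 13 T cell genes in the same tumor (vertical, same axis for all), for anti-PD-1 (blue) and anti-PD-1 + F. nucleatum (orange) tumors, with tumor numbers and bars for the mean ± SD (n = 4). The groups overlap for Gzma, Gzmb, Gzmf and Nkg7, while Gzmk lies at -0.90 to -2.08 with the antibody alone and at -2.72 to -4.33 with F. nucleatum, 3 of these from tumors with 0 reads.

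The genes most like each member over the 8 tumors were found by the root mean square distance between log2 values after each gene's mean was subtracted, among the other 751 genes. This measure takes in the difference between groups, which the table's selection favours. Nkg7 was nearest to Ptprcap (0.316), followed by Gzmb (0.403), Ccl5 (0.456) and Ms4a4b (0.456). Ptprcap codes for a protein associated with the leukocyte phosphatase CD45, and Ms4a4b for a membrane protein of T cells. Gzmb was nearest to Ms4a4b (0.40) and Nkg7 (0.403), then Ptprcap (0.488) and the MHC class II gene H2-Aa (0.509). Gzma was nearest to Klrd1 (0.561), then 2010005H15Rik (0.742), and its nearest member, Nkg7, was rank 10.

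Gzmk and Gzmf had no such close neighbour. The nearest to Gzmk were A430093F15Rik (0.742), Gm16163 (0.825) and the astrocyte filament gene Gfap (0.857). Summed over a group, these had 47, 76 and 36 reads with the antibody alone and 6, 13 and 0 with F. nucleatum. The member nearest to Gzmk, Nkg7, was rank 33. The nearest to Gzmf were Gm49769 (0.898), Ppara (1.09), a lipid-sensing nuclear receptor, and Dnajc5b (1.09), with Gzmg at rank 6 (1.18) and Gzmb at rank 15 (1.34). Gm49769, Ppara and Dnajc5b had 17, 16 and 26 reads with the antibody alone and 1, 0 and 0 with F. nucleatum. Values near 0 in the same tumors shorten such distances, and joint expression was not tested. The ranking of tumors also differed between members. With F. nucleatum, tumor 36 was highest for Gzmb, Gzmk and Nkg7 and tumor 39 for Gzma and Gzmf. With the antibody alone, tumor 17 was highest for Gzmb, Gzmf and Nkg7, tumor 19 for Gzma and tumor 11 for Gzmk.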

How the data were processed

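RNA from 8 tumors, extracted by TRIzol, went into strand-specific TruSeq libraries according to the labels' protocols. FastQC, STAR 2.5, Cuffnorm, DESeq 1.22.1 and mm10 are named in the submitters' processing notes, which assign them no role or order. The deposited table has 1 row per gene, with the authors' log2 value and FPKM for every tumor and their fold change, p-value and FDR. For the authors' p-value the test is not given in the sources. In the deposited log2 columns, 2 to the power of the value minus 1 is a normalized count, and 100% of these were whole multiples of 1 step per tumor within a tolerance of 0.1 read. That step recovers the reads of each gene but no library total.

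The authors' fold change equals the difference of the group means of log2 values, F. nucleatum minus antibody alone. Groups followed the labels, no batch is given there, and the tumor numbers pair no tumors. The log2 values were fitted with limma 3.58.1 under R 4.3.3, using eBayes with trend and Benjamini-Hochberg adjustment over all 752 genes (adjusted p under 0.05), after it was tested on simulated data. It is adjusted within selected genes. Single values were compared by two-sided exact permutation tests in Python 3.11.15 (numpy 2.4.6, pandas 2.3.3, scipy 1.17.1, matplotlib 3.10.9, biopython 1.88). SEs beside log2 differences are those of a difference of 2 means. Positions come from GENCODE M21 on GRCm38, the assembly of mm10, and promoters from RefSeq (all 5 members matched).

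The members, lists and tests were chosen with earlier results of these data known. Named genes are the members, for each the 3 non-member genes at the smallest distance, and any listed gene in the table; 1 such neighbour is not reported here. Genes of a serine-type peptidase term were chosen after their values were seen. Alternatives tried were log2(FPKM + 1), log2(FPKM + 0.1), log2(FPKM + 0.01) for pairs, a mean of at least 1 FPKM, median centring, no trend, array weights, adjustment over more genes, an adjusted p under 0.01, shares of normalized counts, Cd8a in place of the T cell list, and each tumor left out. Chosen after seeing the data were voom on recovered reads, leaving out tumors 36 and 37, values under 3 reads set to 3, and T cell genes with a mean of at least 10 reads.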

Additional observations from a re-analysis of the deposited data

Results flagged for a closer look

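Of 58 sets of 4 values (a member's FPKM, log2 value, share or balance in 1 group), 9 held a tumor farther from the other 3 than Dixon's criterion allows. The criterion's rate of about 1 in 20 holds for independent sets. These sets share genes and tumors, so the 9 cannot be weighed against that rate. In the anti-PD-1 group, tumor 17 stood out for Gzmb (6.45 FPKM) and Gzmf (11.7 FPKM), and tumor 11 for Gzmk (0.463 FPKM). In the F. nucleatum group, tumor 39 stood out for Gzmf (1.2 FPKM) and for a low Gzmb share of the summed granzyme FPKM (29.3%). Tumor 40 stood out for a Gzma share of 0%. Tumor 36 stood out for Gzmk as the 1 tumor above 0, which counts in 3 of the 9 sets: a log2 value of 2.33, 0.0434 FPKM and a share of 1.71%. With the other 3 tumors at 0, that outcome was fixed.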

How the results depend on the processing

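All 5 members had lower values with F. nucleatum in each setting tried, over ranges of -3.94 to -1.0 (Gzma), -2.83 to -1.24 (Gzmb), -3.38 to -1.21 (Gzmf), -4.68 to -0.32 (Gzmk, nearest 0 on log2(FPKM + 1); not tested at a mean of at least 1 FPKM) and -3.20 to -1.07 (Nkg7) on the log2 scale. Calls did depend on the setting. Against 0 members with all tumors, limma called 4 with median centring (Gzma -3.54, Gzmb -2.83, Gzmk -4.60, Nkg7 -2.92), 3 with array weights (Gzmb -2.36, Gzmk -4.32, Nkg7 -2.70) and 1 without tumors 36 and 37 (Gzmk -4.57). Leaving out 1 tumor gave 0 to 3 called, 3 only without tumor 36, with differences of -3.60 to -1.58 (Gzma), -2.59 to -1.69 (Gzmb), -3.38 to -1.49 (Gzmf), -4.57 to -3.71 (Gzmk) and -2.77 to -1.63 (Nkg7). Over the table, 0 genes became 125 (118 lower) with median centring, 238 (152 lower) with array weights, 126 (83 lower) without tumors 36 and 37, 140 (127 lower) without tumor 36, 33 (8 lower) without tumor 37, 2 without tumor 18 and 2 without tumor 40. Voom on recovered reads called 0.

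Balances between members turned sign easily. On log2(FPKM + 0.1), Gzma minus Gzmf was 0.046, Gzma minus Gzmk -0.50, Gzmb minus Gzmk -0.38, Gzmb minus Nkg7 -0.0061, Gzmf minus Gzmk -0.54 and Gzmk minus Nkg7 0.37. With values under 3 reads set to 3, Gzma minus Gzmf was 0.046. Without tumors 36 and 37, Gzmb minus Gzmf was -0.92 and Gzmf minus Nkg7 1.37, the Gzmf share difference was 11.1 percentage points, and Gzmf relative to T cell genes 0.74. Leaving out 1 tumor gave -1.21 to 0.12 (Gzma minus Gzmb), -1.40 to 0.60 (Gzma minus Gzmf), -1.22 to 0.056 (Gzma minus Nkg7), -0.37 to 0.96 (Gzmb minus Gzmf), -0.14 to 0.26 (Gzmb minus Nkg7), -1.10 to 0.47 (Gzmf minus Nkg7), share differences of -10.8 to 3.24 (Gzma) and -10.7 to 6.75 (Gzmf) points, and -1.59 to 0.24 (Gzmf relative to T cell genes). Relative to Cd8a alone, Gzmb was 0.62, Gzmf 0.38 and Nkg7 0.54. The causes were not tested. Depth limits Gzmk and the tumors at 0 most. No paired analysis was possible because the groups share no tumor number.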

Other observations

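The file's serine-type peptidase term, looked up after values were seen, held 22 genes of the table. They include the 4 granzyme members, Gzmg and some serpins that carry the term. With F. nucleatum, 10 of them were lower and 12 were higher. Of the 12 higher genes, 11 had their highest value in tumor 37, the tumor with the skin keratinocyte genes, among them the epidermal kallikreins Klk6, Klk7, Klk9 and Klk13 and the protease inhibitor Spink5. Klk7, a protease of skin shedding, averaged 1.09 FPKM with F. nucleatum and was listed at 0 in the anti-PD-1 group, where Gzmb averaged 3.39 FPKM. The lower genes other than the granzymes, Serpina3f and Serpina3g were scarce: Serpinb1b averaged 0.0892 FPKM, Klk4 0.0703 FPKM and Prss16 0.185 FPKM with the antibody alone.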
